A study of Mus musculus with 2 samples.

Results

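Endosomal sorting genes were examined in RAW264.7, a macrophage leukaemia line of the mouse, and the genes were taken by name from the deposited count table. The name rule took the genes named Chmp or Vps with a number, the numbered sorting nexins (Snx), and Tsg101, Snf8, Hgs, Stam, Stam2, Pdcd6ip and Sdcbp. It gave 83 of 56791 genes. In the FAPD10-exos group, wild-type RAW264.7 cells received 20 ng of recombinant mouse IL4 for 24 h together with 10000000 particles of a preparation named FAPD10-exos. In the Vehicle group, wild-type RAW264.7 cells received the same IL4 over the same time without the particles, and the labels call both cultures M2 polarized. The composition of the vehicle, the origin of the particles and the number of dishes behind a library are not stated in the labels. Each group was 1 library of this single cell line. No test between the groups was therefore possible, and every ratio below is FAPD10-exos over Vehicle for a single pair of libraries with no replicate check.

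Endosomal sorting decides whether a membrane protein taken up from the cell surface is degraded or returned. Ubiquitin-tagged cargo is passed through the ESCRT complexes, which bud vesicles into the endosome and so form multivesicular bodies. Fusion of these bodies with the lysosome degrades the vesicles, and fusion with the plasma membrane releases them as exosomes. Retromer, retriever and the sorting nexins instead draw cargo out of the endosome to the Golgi or the cell surface, and the HOPS, CORVET and GARP tethers prepare the membranes for fusion. Macrophages depend on this machinery to clear ingested material and to turn over their surface receptors.

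Counts were scaled to CPM, which are counts per 1000000 of the TMM-adjusted library size. The FAPD10-exos library held 37196241 counts and the Vehicle library 36152743. Ranges in parentheses after a ratio are exact 95% counting intervals, which cover counting error only. Of genes with 1 to 50 counts, 76.3% in the FAPD10-exos and 75.1% in the Vehicle library had an even count. The intervals are too narrow if both ends of each read pair were counted. The line carried macrophage transcripts: 9 of 10 macrophage markers had a count in the FAPD10-exos and 10 of 10 in the Vehicle library, with summed levels of 2208 and 2415 CPM. Of 10 fibroblast markers, 3 had a count in the FAPD10-exos and 4 in the Vehicle library, at 0.337 and 0.265 CPM in sum, and Col1a1, Dcn, Lum and Ly6a were at 0 in both. All 3 epithelial markers were at 0.

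A gene with a mean of at least 1 CPM was called measured, which held for 81 of the 83 genes. Snx31 had 0 counts in both libraries, and Vps37d had 0 in the FAPD10-exos and 4 in the Vehicle library. Higher and lower genes were those whose scaled counts differed at least 1.5-fold, with the interval entirely on the same side of 1. By this rule 6 of the 81 measured genes (7.41%) were higher in the FAPD10-exos library, against 17.1% of all 12264 measured genes, and 10 (12.3%) were lower, against 19.8% of all measured genes. The median log2 ratio of the 81 genes was -0.06, and that of all measured genes was 0.01. At a 2-fold limit 0 members were higher, against 4.19% of all measured genes, and 2, Vps13b and Snx33, were lower, against 8.64%. The 1.5-fold higher genes were Tsg101, Snf8, Vps25, Chmp2a, Chmp4b and Snx22. The 1.5-fold lower genes were Sdcbp, Vps35, Vps41, Vps13a, Vps13b, Vps13c, Snx13, Snx27, Snx29 and Snx33.

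**Figure D1:**
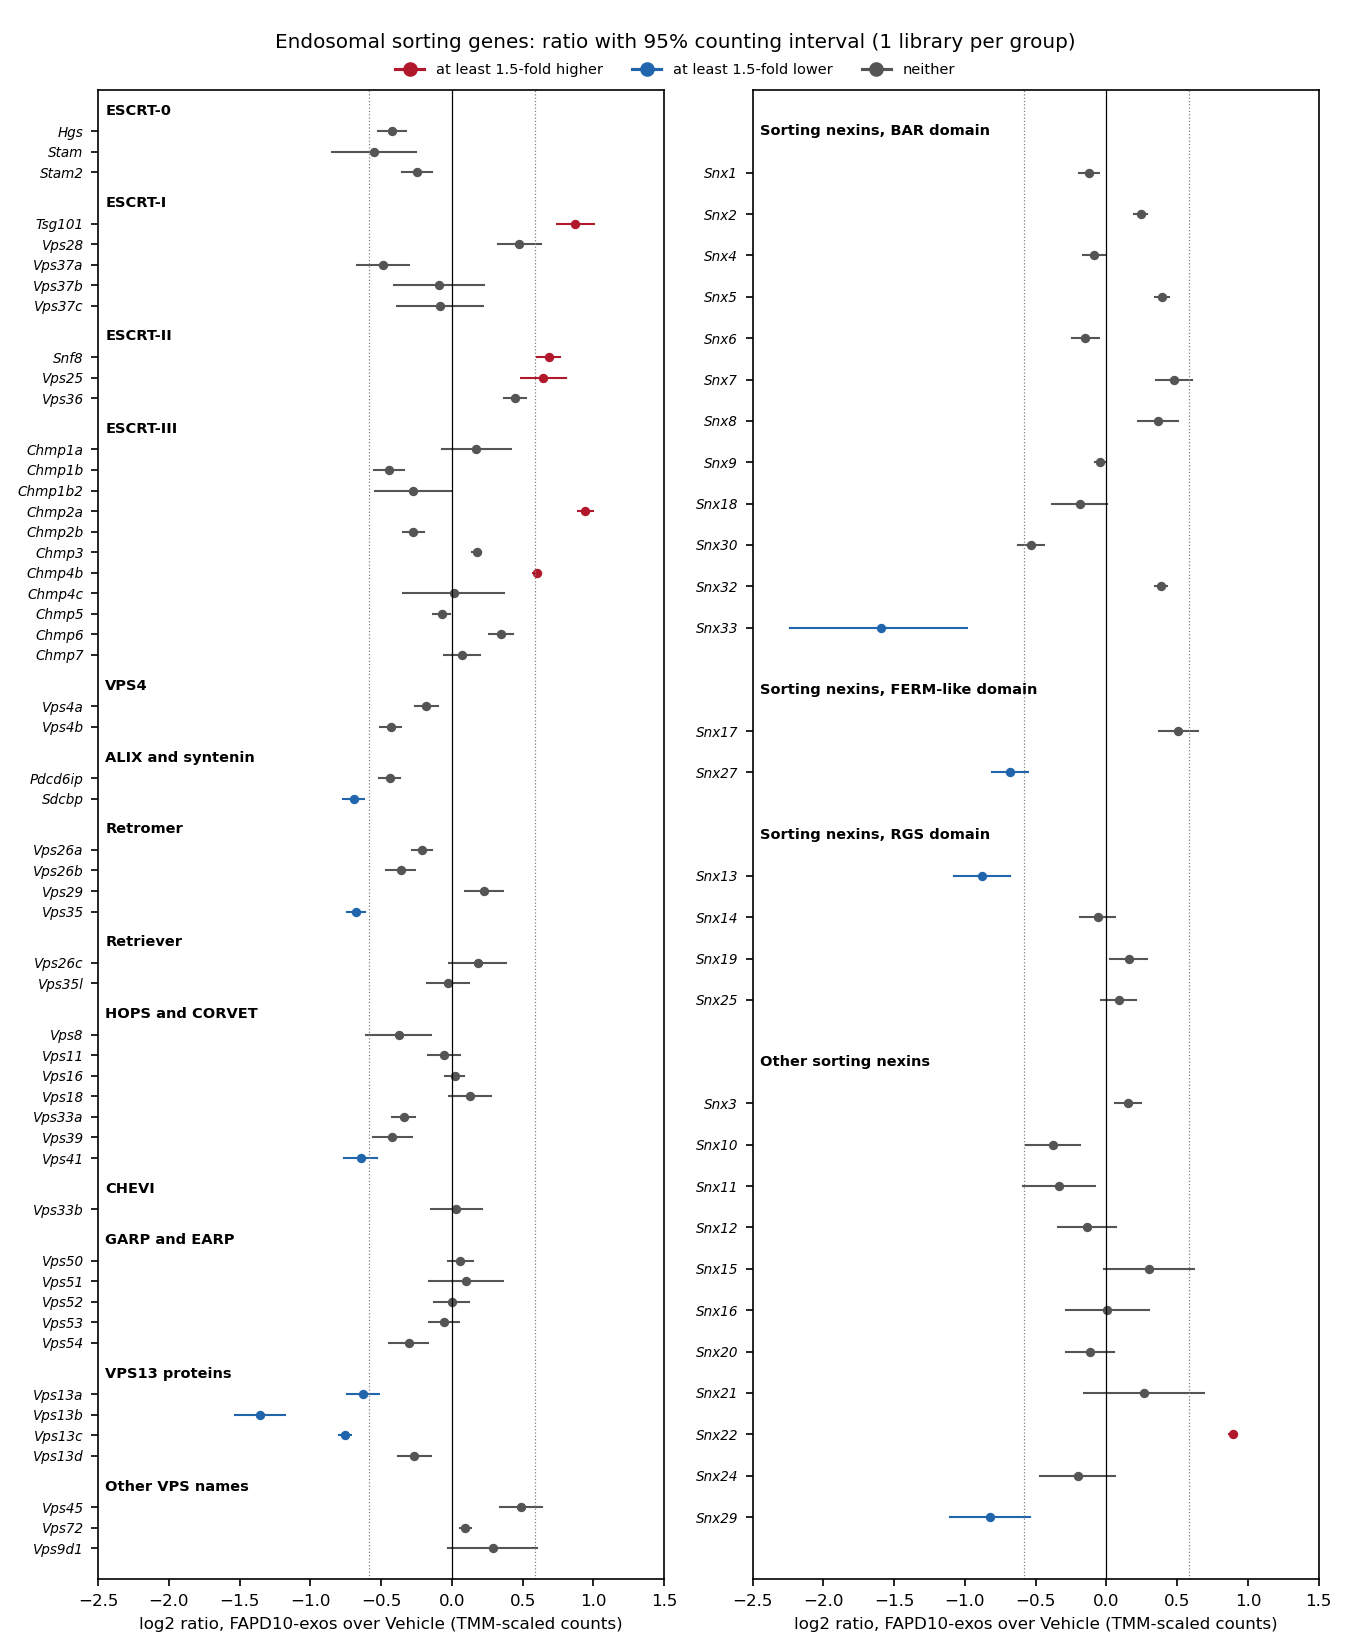
Log2 ratio of TMM-scaled counts, FAPD10-exos over Vehicle (horizontal axis), for the 81 measured endosomal sorting genes, grouped by complex, with 95% counting intervals as lines and the 1.5-fold limits dotted. The 6 higher genes (red) lie in ESCRT-I, ESCRT-II, ESCRT-III and among the other sorting nexins, and the 10 lower genes (blue) lie outside the ESCRT complexes. Of the 24 measured ESCRT and VPS4 genes, 5 were higher (20.8%) and 0 lower, against 17.1% and 19.8% of all measured genes. With the exon length correction given below, 1 was higher and 3 were lower, against 12.2% and 16.4% of all measured genes.

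Promoter sequences of 5 genes that the results turn on are shown first: Tsg101 and Chmp2a had the highest ratios among ESCRT genes, Chmp2b is the paralogue of Chmp2a with a ratio below 1, Hgs was the most abundant ESCRT-0 gene per length, and Pdcd6ip encodes ALIX. Each window is the 250 bases upstream of the RefSeq start on GRCm38.p6, read 5′ to 3′ on the strand of the gene. Capitals mark matches to CCAAT (on the other strand ATTGG), the letters bound by NF-Y, or to CACGTG, the E-box that TFEB and related lysosomal regulators bind. The positions of the count table are on a mouse build that the sources used here do not name, and are not interchangeable with these.
Tsg101, chr7:46919970-46920219, minus strand: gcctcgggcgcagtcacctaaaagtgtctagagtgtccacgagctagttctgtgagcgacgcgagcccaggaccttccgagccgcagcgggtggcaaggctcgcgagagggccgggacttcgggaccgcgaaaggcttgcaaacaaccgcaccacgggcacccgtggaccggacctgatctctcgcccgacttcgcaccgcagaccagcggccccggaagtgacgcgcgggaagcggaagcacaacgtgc
Chmp2a, chr7:13034778-13035027, minus strand: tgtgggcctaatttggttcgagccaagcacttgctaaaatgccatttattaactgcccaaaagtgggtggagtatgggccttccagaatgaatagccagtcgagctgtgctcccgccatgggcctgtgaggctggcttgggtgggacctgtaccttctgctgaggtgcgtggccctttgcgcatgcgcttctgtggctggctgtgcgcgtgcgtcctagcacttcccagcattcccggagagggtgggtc
Chmp2b, chr16:65562763-65563012, minus strand: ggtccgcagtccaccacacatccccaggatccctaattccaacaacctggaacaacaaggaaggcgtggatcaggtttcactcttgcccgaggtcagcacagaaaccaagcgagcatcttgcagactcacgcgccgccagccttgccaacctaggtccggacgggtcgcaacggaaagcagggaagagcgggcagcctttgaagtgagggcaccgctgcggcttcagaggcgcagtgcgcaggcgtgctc
Hgs, chr11:120467385-120467634, plus strand: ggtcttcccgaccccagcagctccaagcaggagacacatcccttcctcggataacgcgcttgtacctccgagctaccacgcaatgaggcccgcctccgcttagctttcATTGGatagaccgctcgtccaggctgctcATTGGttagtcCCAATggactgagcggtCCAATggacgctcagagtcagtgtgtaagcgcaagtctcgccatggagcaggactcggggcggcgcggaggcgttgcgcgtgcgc
Pdcd6ip, chr9:113708260-113708509, minus strand: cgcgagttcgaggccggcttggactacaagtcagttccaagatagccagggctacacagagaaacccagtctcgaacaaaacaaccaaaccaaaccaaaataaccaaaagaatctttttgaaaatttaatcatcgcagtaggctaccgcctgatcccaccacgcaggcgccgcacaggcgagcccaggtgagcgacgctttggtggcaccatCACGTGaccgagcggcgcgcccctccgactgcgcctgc

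The Hgs window held 4 CCAAT matches and the Pdcd6ip window a single E-box, while the Tsg101, Chmp2a and Chmp2b windows held neither. Across the promoter table, windows were present for 54 of the 83 genes, some with more than 1 start, 65 windows in all. CACGTG, searched on both strands, was in 8 of the 65 windows (12.3%) and in 6.02% of 32851 windows of all genes. The 8 windows belonged to Pdcd6ip, Snx5, Snx8, Snx18, Vps16, Vps33a and Vps26a, the last with both of its windows, and none of these genes was counted as higher or lower. CCAAT was in 17 of the 65 windows (26.2%) and in 33.8% of all windows. A STAT6-type match, TTC and GAA with 4 bases between them, was in 2 of the 65 windows (3.08%) and in 5.85% of all windows. No E-box and no STAT6-type match lay in the 6 windows of the higher or the 6 windows of the lower genes that have one. CCAAT was in 1 of the 6 windows of the higher genes (16.7%), that of Vps25, and in 4 of the 6 windows of the lower genes (66.7%), those of Snx13 and Snx33 and both of Snx29. These are 5 genes on each side. A match is a run of letters only, and no binding was measured.

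ESCRT-0, which captures ubiquitinated cargo on the early endosome, had ratios below 1 for all 3 of its genes, though none passed the 1.5-fold limit. Of all 12264 measured genes, 6039 had a ratio below 1. Hgs, the scaffold that binds the endosomal phospholipid, had 1416 counts in the FAPD10-exos and 2020 in the Vehicle library, at a ratio of 0.744 (0.695 to 0.797). Stam2 had 1345 and 1695 counts, a ratio of 0.843 (0.784 to 0.906), and its interval also lay below 1. Stam, the scarcer partner, had 157 and 244 counts and a ratio of 0.683 (0.556 to 0.839). With the exon and transcript length corrections given below, Stam stood at -0.12 and -0.23 in log2 and Stam2 at -0.08 and 0.13. Hgs stood at -0.59 and -0.45.

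ESCRT-I hands the cargo on, and its members differed in direction. Tsg101, the subunit that recognises ubiquitin and is also used by budding retroviruses, had 1250 counts in the FAPD10-exos and 725 in the Vehicle library. That is 35.1 against 19.2 CPM, a ratio of 1.83 (1.67 to 2.01), the second highest among ESCRT genes. It lies on chromosome 7 from 46538697 to 46569717 in the count table. Vps28, another core subunit, had 816 and 623 counts at a ratio of 1.39 (1.25 to 1.55), short of the limit. Another core position is filled by alternative VPS37 proteins, and Vps37a had 398 against 592 counts at a ratio of 0.714 (0.627 to 0.812). Vps37b and Vps37c had ratios of 0.938 and 0.942 with intervals that included 1. Of the exon length of Vps37b, 42.5% lies within other genes, chiefly Hip1r on the opposite strand, so its value is uncertain.

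ESCRT-II nucleates ESCRT-III filaments, and each of its 3 subunit genes had a ratio above 1 with its interval above 1. Of all 12264 measured genes, 6225 had a ratio above 1. Among the 3 genes, 2 were higher (66.7%), against 17.1% of all measured genes. With the exon length correction given below, 0 of the 3 were higher, against 12.2%. Snf8 had 3022 counts in the FAPD10-exos and 1997 in the Vehicle library, at a ratio of 1.61 (1.52 to 1.70). Vps36, the subunit that binds ubiquitin, had 2922 and 2280 counts at 1.36 (1.29 to 1.44), under the 1.5-fold limit. Vps25 had 808 against 549 counts, a ratio of 1.56 (1.40 to 1.75). Vps25 shares 67.2% of its exon length with Ramp2 on the same strand, and Ramp2 had 811 against 548 counts. The reads of these neighbours cannot be told apart, so Vps25 is uncertain. Under scaling by total counts Snf8 stood at 0.56 and Vps25 at 0.52 in log2, both under the limit of 0.58.

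ESCRT-III forms the filaments that cut the membrane neck. Of its 11 measured genes, 2 were higher (18.2%), near the 17.1% of all measured genes. None was lower, against 19.8% of all measured genes, and 9 lay between the limits. Chmp2a, a late subunit that recruits the disassembly ATPase VPS4, had 8454 counts in the FAPD10-exos and 4675 in the Vehicle library. Its level was 238 against 124 CPM, a ratio of 1.92 (1.85 to 1.99), the highest of the 81 measured genes. Chmp4b, the main filament subunit, had 23341 and 16353 counts and a ratio of 1.52 (1.49 to 1.55), just past the limit, and its log2 ratio of 0.60 was 0.47 with total counts and 0.56 with median of ratios, under the limit. Chmp6, which ESCRT-II engages to start a filament, had a ratio of 1.27 (1.20 to 1.35), and Chmp3, the usual partner of Chmp2a, 1.13 (1.11 to 1.15). On the other side of 1, Chmp2b had 2664 against 3418 counts, a ratio of 0.828 (0.787 to 0.871). Chmp1b had 1268 against 1833 counts, a ratio of 0.735 (0.683 to 0.790), but 24.0% of its exon length overlaps the antisense gene Gm50169, which had 1078 against 1695 counts. Chmp1b2 is a near copy of Chmp1b, so the division of their reads is uncertain too. Chmp5 had a ratio of 0.951 (0.910 to 0.992), while the intervals of Chmp1a, Chmp4c and Chmp7 included 1.

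Per kilobase of exon length, Chmp4b was the most abundant ESCRT-III gene, at 324 CPM per kb in the FAPD10-exos and 213 in the Vehicle library. Chmp2a stood second in the FAPD10-exos library, at 204 CPM per kb, and Chmp3 followed at 163. In the Vehicle library Chmp3 came before Chmp2a, at 145 and 106 CPM per kb. Below these, the order was the same in both libraries: Chmp5, Chmp2b, Chmp6, Chmp1b, Chmp7, Chmp1a, Chmp1b2 and Chmp4c. Levels ran down to 0.365 CPM per kb for Chmp4c in the FAPD10-exos and 0.362 in the Vehicle library. The exon length counts every annotated exon, so the level of a gene with long unused exons is understated.

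**Figure D2:**
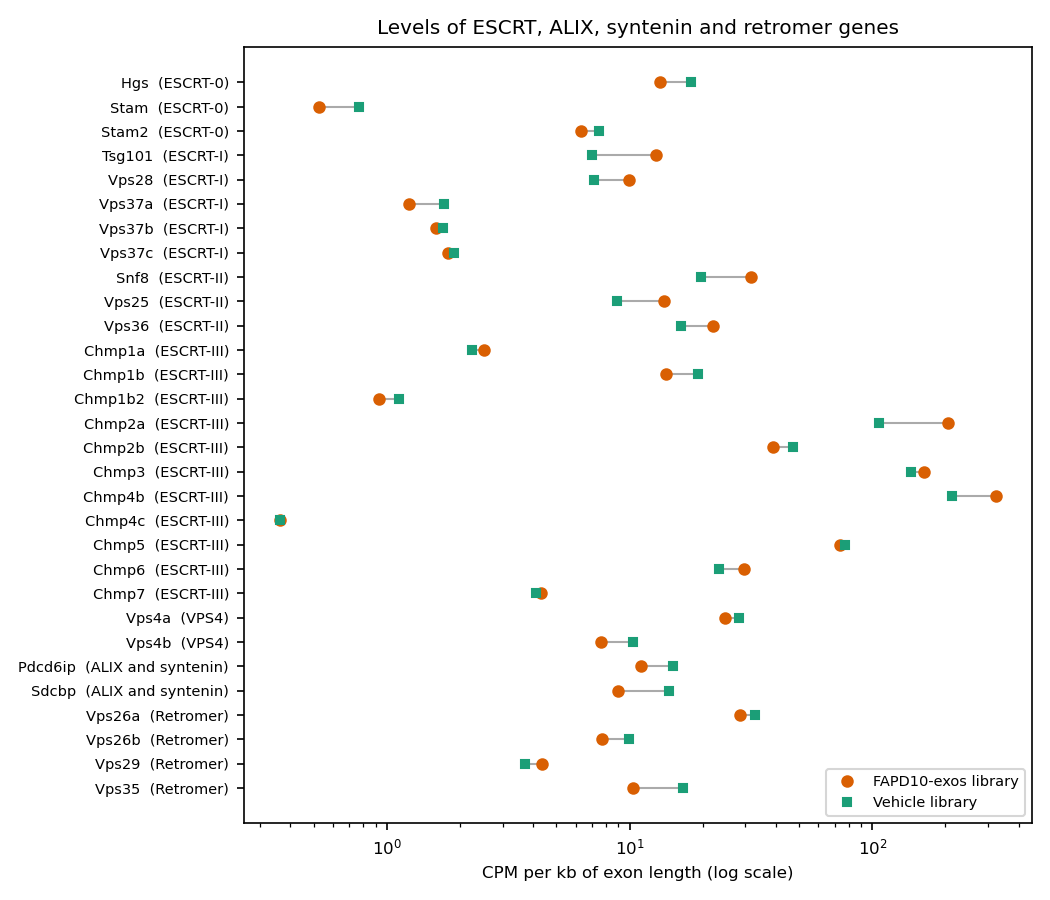
Level in CPM per kb of exon length (horizontal axis, log scale) of the measured ESCRT, VPS4, ALIX, syntenin and retromer genes in the FAPD10-exos library (orange circles) and the Vehicle library (green squares). Chmp2a lies at 204 against 106 and Tsg101 at 12.9 against 7.03 CPM per kb, while Sdcbp lies at 8.96 against 14.5 and Vps35 at 10.3 against 16.5.

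The VPS4 ATPases, which take the filaments apart, had ratios below 1. Vps4a had 2227 counts in the FAPD10-exos and 2683 in the Vehicle library, at a ratio of 0.882 (0.833 to 0.933), and Vps4b 2426 and 3480, a ratio of 0.740 (0.703 to 0.780). With the exon and transcript length corrections given below, Vps4b stood at 0.03 and -0.06 in log2 and Vps4a at -0.47 and -0.38. ALIX and syntenin form a side route into ESCRT-III that loads syndecan cargo into exosomes, and their genes also had ratios below 1. Sdcbp, the syntenin gene, had 2201 counts in the FAPD10-exos and 3785 in the Vehicle library, 61.9 against 100.2 CPM. Its ratio was 0.618 (0.586 to 0.651), past the 1.5-fold limit. Pdcd6ip, the ALIX gene, had 2735 against 3944 counts and a ratio of 0.736 (0.701 to 0.774), short of it. Corrected for exon and transcript length, Pdcd6ip stood at -0.15 and 0.08 in log2. Syndecan-4, the most abundant syndecan gene here, had 6761 against 9858 counts, at a ratio of 0.728 (0.706 to 0.751), and Sdc3 had 102 against 338, a ratio of 0.321 (0.254 to 0.401). The syndecan genes were not all lower: Sdc1 had 252 against 240 counts, a ratio of 1.12 (0.931 to 1.34). Sdc2 had 0 counts in both libraries.

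Paralogues can be compared without any scaling, as the share each takes of the counts of the pair. The shares are not corrected for a difference in length between the genes of a pair. Of 12 pairs, 8 had exact Clopper-Pearson intervals that did not overlap between the libraries, and 6 when counts were halved. The same share was not computed for pairs of other genes, so these counts cannot be called particular to endosomal sorting. Chmp2a made up 76.0% (75.2 to 76.8) of the Chmp2a and Chmp2b counts in the FAPD10-exos library and 57.8% (56.7 to 58.8) in the Vehicle library. This shift of 18.3 percentage points was the largest of the 12. Snx13, of the RGS family, made up 24.2% (21.9 to 26.6) of the Snx13 and Snx14 counts in the FAPD10-exos and 36.0% (33.8 to 38.3) in the Vehicle library. Snx5, a retromer-associated nexin, took 79.8% (78.9 to 80.7) of the Snx5 and Snx6 counts in the FAPD10-exos and 73.1% (72.1 to 74.1) in the Vehicle library.

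Smaller shifts were seen for Chmp1a within Chmp1a and Chmp1b, at 18.8% in the FAPD10-exos and 13.1% in the Vehicle library, and for Snx1 within Snx1 and Snx2, at 26.4% and 31.6%. The Chmp1a share is uncertain, because Chmp1b overlaps Gm50169 and has the near copy Chmp1b2. Vps4a took 47.9% of the Vps4a and Vps4b counts in the FAPD10-exos and 43.5% in the Vehicle library. The Chmp4b and Vps33a shares moved by 0.279 and -3.65 percentage points, with intervals that overlapped once counts were halved. For Vps26a, Stam, Vps13a and Snx9 the intervals of the shares overlapped. These intervals again describe a pair of libraries and not the treatment.

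**Figure D3:**
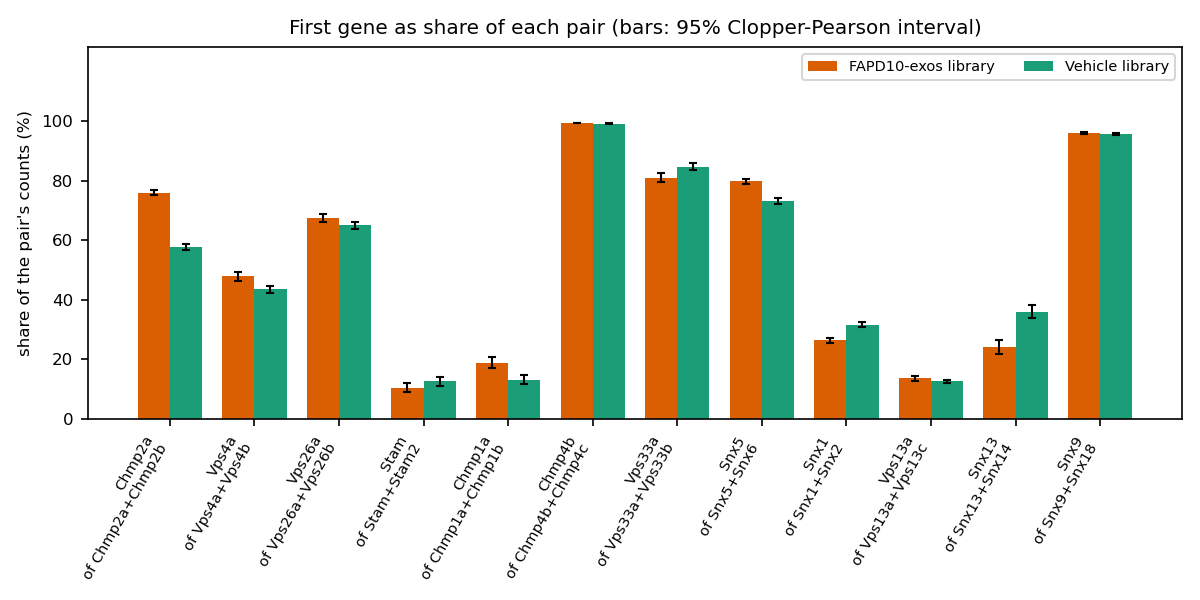
Share of the first gene in the counts of each of 12 paralogue pairs (vertical axis, percent) in the FAPD10-exos library (orange) and the Vehicle library (green), with 95% Clopper-Pearson intervals. Chmp2a takes 76.0% of its pair in the FAPD10-exos and 57.8% in the Vehicle library, and Snx13 takes 24.2% and 36.0%.

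Retromer carries receptors from the endosome to the Golgi and the surface, and its 4 genes differed. Vps35, the long scaffold of the complex, had 3273 counts in the FAPD10-exos and 5564 in the Vehicle library. At 92.0 against 147 CPM, its ratio was 0.625 (0.598 to 0.652). The arrestin-like subunit genes Vps26a and Vps26b had ratios of 0.864 (0.822 to 0.908) and 0.777 (0.725 to 0.833). Vps29, the small subunit that holds regulators, had 951 against 865 counts, a ratio of 1.17 (1.06 to 1.28), on the other side of 1 from Vps35. Retriever, the sister complex that works with SNX17, was near 1, with Vps26c at 1.13 (0.987 to 1.31) and Vps35l at 0.980 (0.884 to 1.09).

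Among the sorting nexins, 29 were measured, with 1 higher (3.45%) and 4 lower (13.8%), against 17.1% and 19.8% of all measured genes. Snx27, which links retromer to cargo with a PDZ-binding tail, had 799 counts in the FAPD10-exos and 1359 in the Vehicle library, at a ratio of 0.624 (0.571 to 0.682), close to that of Vps35. Snx17, a FERM-like relative that sends cargo to retriever, had 998 against 746 counts at 1.42 (1.29 to 1.56), under the limit. Snx13, whose protein sits between membranes of the endoplasmic reticulum and other organelles, had 317 against 620 counts, a ratio of 0.543 (0.473 to 0.623), whereas the related Snx14, Snx19 and Snx25 lay between 0.958 and 1.11.

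Snx33, a nexin of the SNX9 family with an SH3 domain, had 30 counts in the FAPD10-exos and 96 in the Vehicle library. Its ratio of 0.332 (0.213 to 0.505) was the lowest of all measured members. It is a scarce transcript, at 0.843 and 2.54 CPM, and with counts halved its interval was 0.173 to 0.603. Snx29 had 161 against 302 counts, a ratio of 0.566 (0.465 to 0.688). The remaining 11 BAR-domain nexins, which bend the membrane into tubules, lay between 0.691 for Snx30 and 1.39 for Snx7. Snx9, of clathrin-coated pits, had 9731 against 10656 counts at 0.970 (0.943 to 0.997), and Snx3, which pairs with retromer without a BAR domain, 1988 against 1902 at 1.11 (1.04 to 1.18).

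Snx22 had 27268 counts in the FAPD10-exos and 15585 in the Vehicle library, at a ratio of 1.86 (1.82 to 1.90). Of its exon length, 28.5% lies within Ppib on the opposite strand, an abundant gene with 37137 and 21318 counts and a ratio of 1.85. The reads of Snx22 and Ppib cannot be told apart, so no level of Snx22 is established. Snx32 is in a like position, with 11317 against 9197 counts at a ratio of 1.31, where Cfl1 on the opposite strand shares 13.2% of its exon length and had 24941 against 19879 counts at 1.33. Without the 4 members that share over 20% of their exon length, 4 of 77 measured genes were higher and 10 lower.

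HOPS and CORVET tether late and early endosomes before fusion. Of their 7 genes, 1 was lower (14.3%) and none higher, against 19.8% and 17.1% of all measured genes. Vps41, a subunit specific to HOPS, had 978 counts in the FAPD10-exos and 1625 in the Vehicle library, at a ratio of 0.639 (0.590 to 0.692), or -0.578 in log2 with upper-quartile scaling, inside the limit of 0.585. Its HOPS partner Vps39 had 739 against 1051 counts at 0.747 (0.679 to 0.821), and Vps33a, which guides SNARE assembly in both tethers, 2143 against 2885 at 0.789 (0.746 to 0.835). The shared core genes Vps11, Vps16 and Vps18 had ratios from 0.963 to 1.09, with intervals that included 1. Vps8, of CORVET, stood at 0.770 (0.657 to 0.902). Vps33b of the CHEVI tether was at 1.02 (0.901 to 1.16).

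The GARP and EARP tethers receive endosome-derived vesicles. None of their 5 genes was higher or lower, against 17.1% and 19.8% of all measured genes. Vps50, Vps51, Vps52 and Vps53 had ratios between 0.963 and 1.07 with intervals that included 1. Vps54, the subunit particular to GARP, had 742 against 974 counts at 0.809 (0.734 to 0.891). Of the other VPS names, Vps45, a SNARE regulator of the early endosome, had 872 against 660 counts at 1.40 (1.27 to 1.55). Vps72 encodes a chromatin protein of histone exchange despite its name, and had 11275 against 11225 counts at 1.07 (1.04 to 1.10).

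The VPS13 proteins are long bridges that move lipid between organelles, and 3 of their 4 genes were lower (75%), against 19.8% of all measured genes. All 4 are in the decile of measured genes with the longest exons, from 9472 bases, where 51.8% were lower. With the exon length correction given below, none of the 4 was lower. Vps13c, by far the most abundant per length at 11.9 CPM per kb in the FAPD10-exos and 20.1 in the Vehicle library, had 6900 against 12373 counts, a ratio of 0.592 (0.575 to 0.610). Vps13b had 357 against 969 counts, a ratio of 0.391 (0.346 to 0.442), the second lowest of the measured members. Vps13a had 1080 against 1774 counts at 0.647 (0.599 to 0.698), inside the limit at -0.56 in log2 with upper-quartile scaling, and Vps13d 1083 against 1384 at 0.831 (0.767 to 0.901), which did not pass the limit.

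Exon length moved with these ratios. Across the 81 measured members, which share the same libraries, Spearman's rho between exon length and log2 ratio was -0.56, and across all 12264 measured genes it was -0.45. The 6 higher genes had exon lengths from 1162 bases in Chmp2a to 2891 in Snx22, and the 10 lower ones from 4571 in Snx33 to 21273 in Vps13b. Among all measured genes in the longest length decile, from 9472 bases, the median log2 ratio was -0.62 and 51.8% were lower, and 3 of the 7 members there, all VPS13 genes, were lower. In the decile from 1031 to 1850 bases the median was 0.40 and 34.5% of all genes were higher, as were 2 of the 4 members there, Chmp2a and Vps25. The part of length in any single ratio was not tested.

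Length was corrected for in 2 ways, by subtracting the running median of all measured genes over exon length in the count table or over the length of the principal transcript in GENCODE M21, which was at hand for 80 of the 81 members. With exon length the median of the members was -0.02, with 5 higher, against 12.2% of all measured genes, and 5 lower, against 16.4%. With transcript length the median was -0.03, with 5 higher, against 10.2% of the 9966 measured genes that have such a length, and 5 lower, against 12.1%. Of the 16 genes counted as higher or lower, 4 kept their call with exon length and 6 with transcript length. Tsg101 stayed higher, at 0.594 on the log2 scale with exon length, just past the limit of 0.585, and 0.62 with transcript length. So did Snx22, at 0.69 and 0.79, though its reads cannot be told apart from those of Ppib. Snx29 stayed lower, at -0.590, just past the limit, and -0.87, as did the scarce Snx33, at -1.56 and -1.25.

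The corrections differed on Sdcbp and Vps41. Sdcbp stood at -0.40 with exon length, inside the limit of 0.585, and at -0.91 with transcript length, past it, and Vps41 stood at -0.364 and -0.588. Vps35 was inside the limit with both, at -0.22 and -0.53, as were Chmp2a at 0.54 and 0.29 and Snf8 at 0.38 and 0.06. Vps25, uncertain by overlap, was also inside it, at 0.25 and 0.09. Vps13a turned to 0.26 and 0.35 and Vps13c to 0.05 and 0.26. Vps13d crossed the limit on the higher side with both, at 0.64 and 0.75. Vps35l was past the limit on opposite sides, at 0.69 with exon length and -0.71 with transcript length. The transcript taken for Vps35l was only 608 bases, against an exon length of 14648. The transcript-corrected value of Vps35l is therefore uncertain and is not given the weight of the other. Snx7 crossed it on the higher side with exon length, at 0.67, but stood at 0.003 with transcript length. Hgs at -0.59, Chmp2b at -0.64 and Chmp1b at -0.73 crossed it on the lower side with exon length, and were at -0.45, -0.53 and -0.55 with transcript length, inside it. Vps36 at 0.62 and Snx19 at 0.64 crossed it with transcript length, against 0.34 and 0.44 with exon length. The log2 difference between Chmp2a and Chmp2b was 1.21 before correction, 1.18 with exon length and 0.83 with transcript length. That between Vps4a and Vps4b was 0.25 before, -0.49 with exon length and -0.32 with transcript length. Between Snx13 and Snx14 it was -0.82 before, -0.69 with exon length and -0.29 with transcript length. Between Snx5 and Snx6 it was 0.54 before, 0.67 with exon length and 0.69 with transcript length.

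**Figure D4:**
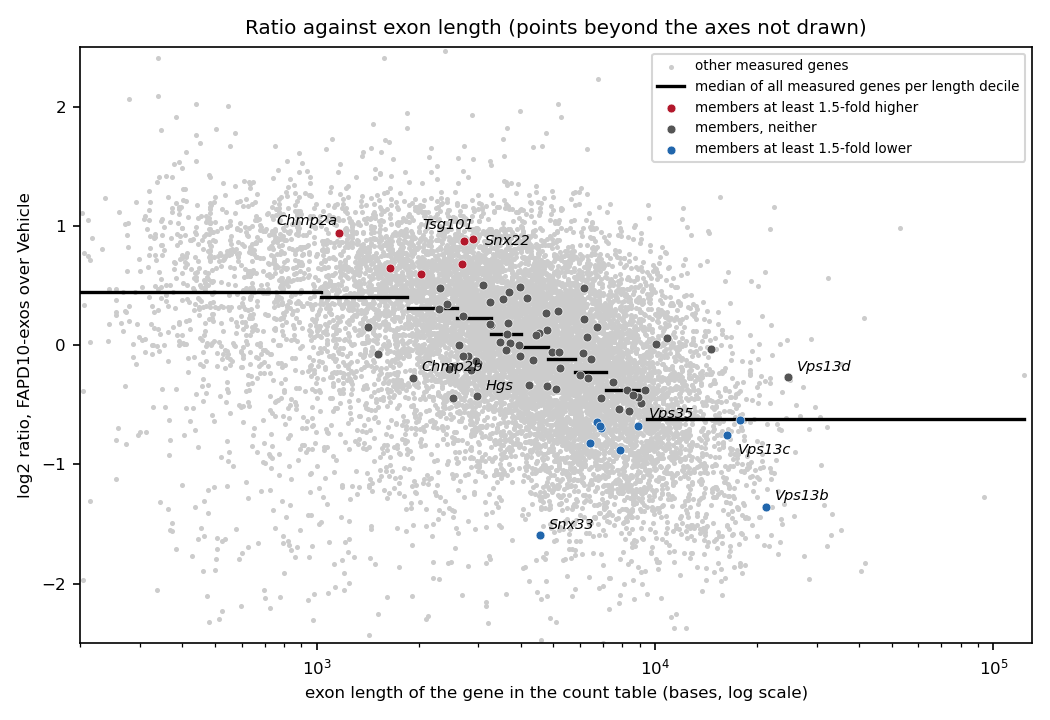
Log2 ratio, FAPD10-exos over Vehicle (vertical axis), against exon length in the count table (horizontal axis, bases, log scale) for all measured genes (light grey), the measured endosomal sorting genes (coloured by call) and the median per length decile (black lines). The decile medians run from 0.44 for the shortest to -0.62 for the longest genes, with Tsg101 and Chmp2a above and Snx33 and Hgs below their length class.

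A list of 45 further genes of the same machinery, 44 of them measured, had 6 higher (13.6%) and 9 lower (20.5%) by the same rule, against 17.1% and 19.8% of all measured genes, and a median log2 ratio of 0.00. Of these 15 genes, 9 kept their call after the exon length correction and 6 after both length corrections. Usp8, the deubiquitinase that edits cargo at ESCRT-0, had 8279 counts in the FAPD10-exos and 17696 in the Vehicle library, at a ratio of 0.497 (0.484 to 0.510). Ptpn23, a relative of ALIX that links ESCRT-0 to ESCRT-III, had 352 against 841 counts, a ratio of 0.445 (0.391 to 0.504). Both stayed past the limit after correction, Usp8 at -1.05 with exon and -0.77 with transcript length and Ptpn23 at -0.98 and -0.70. Eea1, the early endosome tether, had 7433 against 18948 counts at 0.417 (0.406 to 0.428), and its corrected values were -0.81 with exon length and -0.54 with transcript length, the second inside the limit. Tbc1d5, a Rab7 regulator bound by retromer, had 861 against 2474 counts at 0.370 (0.342 to 0.400), and Igf2r, a retromer cargo receptor, 1510 against 3062 at 0.524 (0.492 to 0.557). Corrected for exon and transcript length, Tbc1d5 stayed past the limit at -0.79 and -0.98, whereas Igf2r did not, at -0.47 and -0.08.

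On the other side, Pdcd6, the calcium-binding partner of ALIX, had 464 counts in the FAPD10-exos and 307 in the Vehicle library, at a ratio of 1.61 (1.39 to 1.86), and Mvb12a of ESCRT-I 964 against 675 at 1.52 (1.37 to 1.68). Neither passed the limit after correction, Pdcd6 at 0.43 with exon and 0.15 with transcript length and Mvb12a at 0.45 and 0.01. Of the 12 Commander genes, which work with retriever, 3 were higher (25%) and none lower, against 17.1% and 19.8% of all measured genes, and 2 of the 3 are uncertain by overlap. Commd1 led with 3540 against 1658 counts, a ratio of 2.27 (2.14 to 2.41), and corrected log2 values of 1.33 with exon and 1.48 with transcript length. The uncertain genes, Commd5 and Ccdc22, at 1.63 and 1.93, share 66.8% and 92.6% of their exon length with other genes. The WASH complex, which builds actin on endosomes for retromer, was split. Washc3 had 579 against 288 counts at 2.14 (1.85 to 2.47), whereas Washc4 had 1295 against 2482 at 0.554 (0.518 to 0.593) and Washc2 5268 against 8675 at 0.645 (0.623 to 0.667). With exon length correction Washc3 was at 1.12 and Washc4 at -0.67, past the limit, but with transcript length they were at 0.50 and -0.35, inside it. Washc2 was inside it with both, at -0.34 and -0.36. The other lower genes of the list were Tgfbrap1, at a ratio of 0.624 and corrected values of -0.16 and -0.21, and Sdc3, at corrected values of -1.48 and -1.34.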

How the data were processed

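The authors deposited 1 table of read counts per gene symbol for both libraries, in the layout of featureCounts per the file headers, as whole numbers that were not normalised. Per the submitters' processing notes, fastp 0.23.4, STAR 2.5.3a and featureCounts were used, with the build GRCh38, which is human although the symbols are those of mouse genes. Which annotation was used, whether strand was considered and how multiply matching reads were treated is not given there. Exon lengths and overlaps between genes came from the table's own length and position columns. All sample columns were matched by description.

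Counts were scaled with TMM (edgeR 4.0.16, R 4.3.3), with factors of 0.957 for FAPD10-exos and 1.05 for Vehicle, so that 1 CPM was 35.6 and 37.8 counts. With 1 library per group the quasi-likelihood test has no residual degrees of freedom, and no p-value was computed. Ratio intervals were derived from exact Clopper-Pearson limits on the share of FAPD10-exos in both counts, and 0.5 was added where a count was 0. Members that share over 20% of their exon length were taken as uncertain. For the length correction, the running median in 50 equal bins of length was taken off each log2 ratio. Promoter windows were taken from RefSeq by symbol, for 54 of 83 genes. The procedure was tested on simulated data. The members, the gene lists and the pairs were chosen with earlier results of these data known. Every member may be named, and the counts were given for members past the limit and for some of the most abundant members, beside others for contrast. Alternatives were scaling by total counts, median of ratios (DESeq2 1.42.0) and upper quartile, no filter, a mean of at least 10 CPM, counts halved, 1 CPM added, a 2-fold limit, both length corrections, and uncertain members left out. Computations used matplotlib 3.10.9, scipy 1.17.1, pandas 2.3.3 and numpy 2.4.6 in Python 3.11.15.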

Additional observations from a re-analysis of the deposited data

How the results depend on the processing

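No paired analysis was possible because each group held 1 library. Under total-count scaling all measured genes shifted by -0.13 in median log2 and the members' median was -0.19, with 3 members counted as higher in place of 6 and 13 lower in place of 10. In the list of further genes 3 were higher in place of 6 and 12 lower in place of 9. The share of all measured genes called under total-count scaling was not computed, so these counts have no background to be read against. At a 2-fold limit, 0 members were higher and 2 lower, with 2 higher and 5 lower in the further list (4.19% of all measured genes higher and 8.64% lower). The exon length correction left 5 members lower in place of 10. The correction by the principal transcript of GENCODE M21, chosen after the data were seen, also left 5. Vps13a changed sign under both, at 0.26 and 0.35, and so did Vps13c, at 0.055 and 0.26. Of the 16 members counted as higher or lower, 4 kept their call under both length corrections, namely Tsg101, Snx22, Snx29 and Snx33, and Sdcbp and Vps41 kept it under the transcript correction only. Of the 4, Snx22 is uncertain by its overlap with Ppib, and Snx33 had only 30 and 96 counts. With exon length Tsg101 at 0.594 and Snx29 at -0.590 lay just past the limit of 0.585. With counts halved and with 1 CPM added all 16 kept their call, 15 did under median of ratios, 14 under upper quartile and 13 under total counts. The calls of Chmp4b, Snf8 and Vps25 were lost under total counts, that of Chmp4b under median of ratios, and those of Vps13a and Vps41 under upper quartile. The members' median was -0.06 as reported and 0.01 under upper quartile. Counts of Snx33 and Vps37d limit what can be said of them.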
